A study of Mus musculus with 3 samples.

Results

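Sox4, Mecom, the tribbles genes Trib1, Trib2 and Trib3, the kinase genes Pim1, Pim2 and Pim3, and the linked genes Evi2a and Evi2b were followed in RNA-seq libraries of a mouse model of TBLR1-RARα leukemia. These 10 genes, of 16742 gene identifiers listed in the libraries, were chosen by name as genes known from retroviral insertion in mouse leukemia or as relatives of such genes, and the question put to them was whether any was high in only 1 leukemia line. The control library held lineage-negative (lin-) bone marrow cells of C57BL/6 mice that were wild type. The TR1 and TR9 libraries held GFP+ bone marrow cells of TBLR1-RARα (TR) mice on the same background, from the third generation of serial transplantation. Mice in all 3 groups were 6 to 8 weeks old, and each library pooled cells of 3 mice. Each TR line went back to 1 primary mouse, whose marrow graft had been transduced with a pMSCV retrovirus carrying TR and GFP on 1 transcript from the viral promoter, so a line represents 1 transplanted leukemia and not a set of independent ones. The control cells carried no vector and were isolated by lineage depletion, whereas the TR cells were sorted for GFP. Isolation, vector and leukemia therefore cannot be told apart in any comparison with control.

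Retroviruses such as the murine leukemia viruses insert their DNA into the host genome, and the promoter and enhancer in their long terminal repeats can switch on a gene nearby. Genes hit again and again in independent leukemias were cloned as common insertion sites and named for it: Pim for proviral integration of Moloney virus, Evi for ecotropic viral integration site. Sox4 encodes an HMG-box transcription factor, Mecom (the Mds1 and Evi1 complex locus) a zinc-finger transcription factor of hematopoietic stem cells, Trib1 and Trib2 pseudokinases that bring the ubiquitin ligase Cop1 to C/EBPα, and the Pim genes serine/threonine kinases that act without an upstream activating kinase and are induced by cytokine receptors through STAT factors. Sites of vector insertion were not analysed here, so the levels below say nothing of where the vector lay.

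The libraries held 5488778 (control), 5571409 (TR1) and 5129662 (TR9) expected counts over 15302, 14642 and 14817 listed genes, and 9, 7 and 10 of the 10 genes were listed. A gene absent from a library was read as 0 counts, which leaves room for up to 3 counts. Levels are given in FPKM, fragments scaled for transcript length and library depth. With 1 library per condition there was no replicate spread. A gene was called higher or lower when a Poisson test on the expected counts passed a false discovery rate of 0.001 over all genes tested and the FPKM ratio was at least 2-fold, a rule that compares the reads of those libraries and not the conditions. Parentheses after a log2 ratio hold a 95% exact interval of the ratio of counts scaled by library total, for counting error alone. That ratio can depart slightly from the FPKM ratio, as for Evi2a in TR1 over control, at log2 ratios of 2.38 and 2.31.

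Between TR1 and control, 4 of the 10 genes were called higher (Trib1, Pim1, Evi2a and Evi2b), 3 lower (Sox4, Mecom and Trib2) and 3 neither. Over all genes tested in that comparison, 8.09% were called higher and 13% lower. Between TR9 and control, 4 genes were called higher, again Trib1, Pim1, Evi2a and Evi2b, 2 lower (Sox4 and Trib2) and 4 neither, against 9.37% higher and 10.8% lower over all genes. Both comparisons used the same control library. No member was called higher in 1 line and not in the other, whereas Trib1 and Evi2a were high in each line to a different degree. In the direct comparison of TR9 with TR1, Trib1 was called higher and Evi2a lower, and 8 genes were not called, with 4.34% of all genes higher and 2.31% lower. The same shares over all genes stand behind the counts of called genes in the lists below. With the 2-fold rule alone, Sox4, Mecom and Trib2 joined Trib1 as higher in TR9, on at most 6 counts against 0, and 16.9% of all genes met that rule. When a variation of 0.2 between animals was assumed in edgeR's exact test, Pim1 and Evi2b lost their calls against control, Mecom its call in TR1, Evi2a its call in TR9, and Trib1 and Evi2a their calls between the lines.

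**Figure D1:**
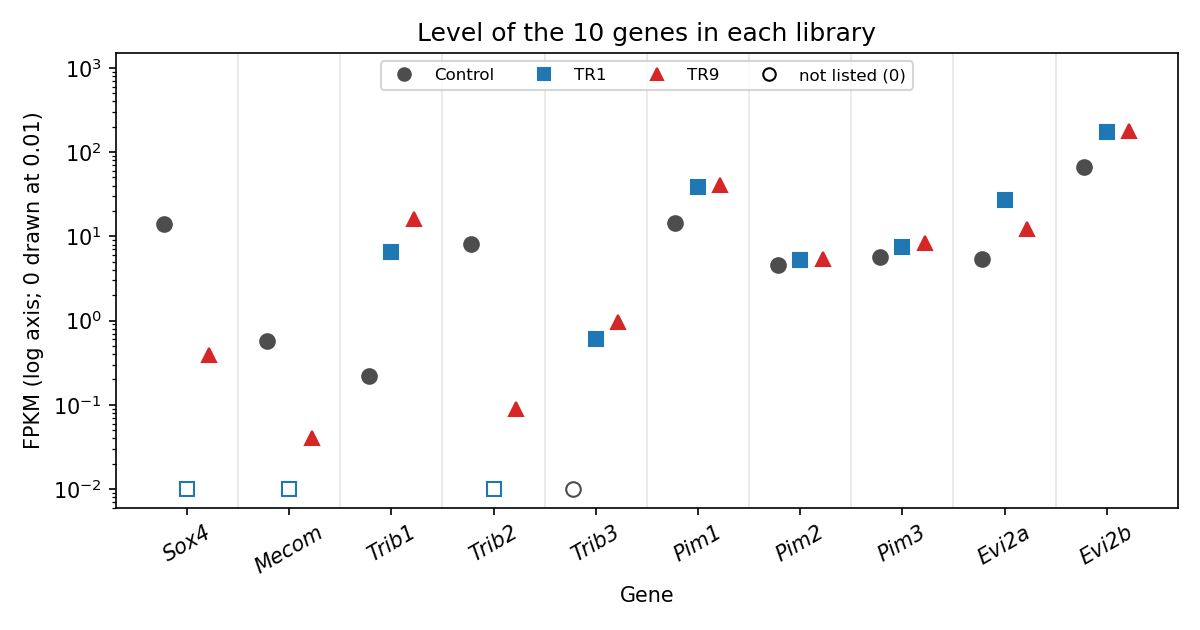
FPKM of the 10 genes in the control (grey circle), TR1 (blue square) and TR9 (red triangle) libraries on a log axis, 1 point per library, with open symbols at 0.01 for a gene not listed. Sox4 and Trib2 were high in control only, Trib1 ran from 0.22 in control to 15.99 in TR9, and Evi2b was the most abundant of the 10 in each library.

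The cell mixtures differed along with these genes. In bulk RNA, fewer cells of a type and less RNA per cell cannot be told apart. The 8 stem and multipotent markers summed to 193, 48.3 and 15.2 FPKM in the control, TR1 and TR9 libraries, with Slamf1 at 0 in both TR libraries and Procr at 0 in TR9. In each comparison with control 6 of the 8 were called lower, but Flt3 was called higher in TR1 and made up 38.44 FPKM of the TR1 sum. The 7 erythroid markers summed to 1975, 4.53 and 8.84 FPKM and the 6 megakaryocyte and platelet markers to 905, 3.19 and 1.91, with Pf4 and Gp6 at 0 in both TR libraries, Epor, Alas2 and Ppbp at 0 in TR1 and Alas2 and Gp9 at 0 in TR9. The erythroid and megakaryocyte markers and most stem markers were thus high in control and low in both TR libraries, as Sox4 and Trib2 were. Mecom was low in every library, at 0.57 FPKM in control. The part of cell mixture in the levels of Sox4, Mecom and Trib2 was not tested.

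The summed granulocyte markers were higher in the TR libraries, as Trib1, Pim1, Evi2a and Evi2b were. The 5 primary granule genes of promyelocytes summed to 4251, 21278 and 23701 FPKM in the control, TR1 and TR9 libraries, and the 7 late granulocyte genes to 85.5, 23121 and 8941. Between the lines these markers did not go 1 way. Of the late granulocyte genes, Lcn2, S100a8, S100a9 and Mmp8 were called lower in TR9 than in TR1 and Camp and Ngp higher, and of the primary granule genes Mpo and Ms4a3 were called lower and none higher. The 5 monocyte markers summed to 246, 570 and 364 FPKM, most of it F13a1 in the TR libraries (98.78, 543.15 and 301.44 FPKM). In each comparison with control 3 of the 5 were called lower, but not the same 3. Between the lines, 1 of the 5 was called higher in TR9 than in TR1 and 0 lower. The 5 stroma markers summed to 637, 9.62 and 10.1 FPKM, with Lepr called higher in TR1, and the 5 B cell markers to 1.66, 3.35 and 5.29, with Cd79a and Pax5 at 0 in both TR libraries. The 5 T cell markers summed to 5.84, 170.03 and 86.01 FPKM, nearly all of it Thy1 in the TR libraries (3.55, 167.58 and 82.77 FPKM). Cd3e was at 0 in TR1 and Cd3g in TR9. The part of these cell types in the levels of Trib1, Pim1, Evi2a and Evi2b was not tested.

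Sox4 was expressed in the control cells and nearly absent from both leukemia libraries. Its expected counts were 228, 0 and 6 in the control, TR1 and TR9 libraries, or 13.93, 0 and 0.39 FPKM. Control alone was high, at rank 5659 of its listed genes. TR1 was lower than control by at least 62.2-fold, the nearer limit of the 95% counting interval. TR9 was 35.7-fold lower, a log2 ratio of -5.16 (-6.61 to -4.01). The 6 counts of TR9 against 0 of TR1 were not called.

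Sox4 is a single-exon gene on chromosome 13 (chr13:28948919-28953713, minus strand, GRCm38, GENCODE M21), overlapped by the lincRNA Gm26735 on the other strand. The sequence just before its start is shown because Sox4 was high in control only and because the window held both the half-site AGGTCA, to which retinoic acid receptors bind in pairs, and the PU.1 core GAGGAA. The capitals mark these letters, and the window (RefSeq, GRCm38.p6, chr13:28953714-28953949, minus strand) stops where the annotated exon begins.
Sox4: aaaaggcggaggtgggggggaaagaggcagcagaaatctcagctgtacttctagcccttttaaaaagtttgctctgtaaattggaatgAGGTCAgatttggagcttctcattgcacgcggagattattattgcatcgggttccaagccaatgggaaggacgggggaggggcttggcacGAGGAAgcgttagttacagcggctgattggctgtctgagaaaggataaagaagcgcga
AGGTCA or its reverse complement was in 14.0% of 32851 mouse promoter windows of 250 bases and GAGGAA in 23.3%, so neither match is rare.

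Of 14 other Sox genes, 11 were listed in some library and Sox2, Sox10 and Sox11 in none. Sox13, a SoxD factor, was called higher and its relative Sox6, which acts in red cell maturation, lower in each comparison with control, and no Sox gene was called between TR9 and TR1. Sox6 had 127 expected counts in control and 0 in each TR library. Sox13 had 19, 55 and 55, at 0.97, 2.76 and 3 FPKM. Sox12, the SoxC relative of Sox4, stood at 10.55, 5.4 and 7.88 FPKM in the control, TR1 and TR9 libraries and was not called. Against control the list had a median log2 ratio of -0.97 for TR1 and 0.18 for TR9. Genes absent from 1 library were then held at 3 counts, or given a log2 ratio of 0 where the other count was 3 or less. Each median was then 0, a value set by that rule. All genes tested had medians of -0.29 and -0.12. These Sox and Prdm relatives were named after their values were seen.

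Mecom was low in every library. Its counts were 14, 0 and 1 in the control, TR1 and TR9 libraries, or 0.57, 0 and 0.04 FPKM. The TR1 library was called lower, by at least 3.37-fold, and TR9 was not, at a log2 ratio of -3.83 (-9.11 to -0.99). At these counts neither TR library showed Mecom above its control level. The gene spans 596713 bases on chromosome 3 (chr3:29951296-30548008, minus strand), with the antisense RNA Mecomos on the other strand, and the strand used in counting is not given in the sources used here.

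Prdm16, the closest relative of Mecom and another insertion-site gene, had 24 counts in control and 0 in each TR library. Of 14 other Prdm genes, 11 were listed. Prdm16 was called lower in each comparison with control and Prdm9 higher in TR9 (1.55 FPKM in control, 1.83 in TR1, 3.6 in TR9), and no gene of the list was called between TR9 and TR1. The Prdm list had median log2 ratios of -0.41 (TR1) and -0.55 (TR9).

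Among 12 partners and targets of Mecom, Gata2 was called lower in each comparison with control. None was called higher in TR1, and Spi1 was called higher in TR9. Gata2, a stem and progenitor transcription factor that EVI1 activates, fell from 50.9 FPKM in control to 3.5 in TR1 and 1.96 in TR9, log2 ratios of -3.86 (-4.25 to -3.49) and -4.70 (-5.24 to -4.20). Spi1, which encodes the myeloid factor PU.1, stood at 59.98, 99.52 and 249.58 FPKM, and was higher in TR9 than in TR1 by 1.33 (1.20 to 1.45). Runx1 was also called higher in TR9 than in TR1, at 18.56 FPKM in TR1 and 37.66 in TR9. Median log2 ratios of the list were -0.46 (TR1) and 0.05 (TR9).

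Trib1 and Trib2 changed places. Trib2 made up 97.3% of the summed tribbles FPKM in control, whereas Trib1 made up 91.4% in TR1 and 93.9% in TR9. The sum itself was 8.23, 7.1 and 17.03 FPKM in the control, TR1 and TR9 libraries. Trib1 and Trib2 encode pseudokinases with closely related function, each able to cause myeloid leukemia in mice when overexpressed.

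Trib1 had 5, 147 and 333 expected counts in the control, TR1 and TR9 libraries, or 0.22, 6.49 and 15.99 FPKM. All 3 libraries stood apart. Against control, the log2 ratio was 4.88 (3.60 to 6.50) for TR1, a 29.5-fold difference, and 6.18 (4.92 to 7.79) for TR9, a 72.7-fold difference. Between the lines Trib1 was 2.46-fold higher in TR9, a log2 ratio of 1.30 (1.01 to 1.59). The gene moved from rank 13415 of the listed genes in control to 7636 in TR1 and 4935 in TR9. It lies on chromosome 15 (chr15:59648350-59657099, plus strand). Over the 3 libraries the genes nearest to its levels were Ccno, at 0.19, 8.13 and 16.03 FPKM, and Tex15, at 0.15, 8.12 and 12.08 FPKM, with distances of 0.39 and 0.76 in log2 FPKM.

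Trib2 ran the other way. It had 186, 0 and 2 expected counts in the control, TR1 and TR9 libraries, or 8.01, 0 and 0.09 FPKM. Only control was above 3 counts. Against control, TR1 was lower by at least 50.7-fold and TR9 by a log2 ratio of -6.48 (-9.50 to -4.57). Trib2 lies on chromosome 12 (chr12:15791727-15816922, minus strand). Its short window before the first annotated exon (chr12:15816923-15817035, minus strand) is shown beside that of Sox4, since Trib2 too was high in control only, and it held none of the 5 motifs searched.
Trib2: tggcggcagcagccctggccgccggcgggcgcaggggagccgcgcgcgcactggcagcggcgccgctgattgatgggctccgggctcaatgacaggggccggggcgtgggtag

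Trib3, the tribbles gene of the ATF4 stress response, was not listed in control and had 7 expected counts in TR1 and 10 in TR9, or 0.61 and 0.95 FPKM. This was at least 1.42-fold and at least 2.40-fold higher than control, by the nearer limits of the 95% counting intervals. Neither difference was called at the false discovery rate used. The gene lies on chromosome 2 (chr2:152337422-152344032, minus strand). Its promoter is shown because the ATF4 site would be looked for there. The letters TGATGNAA, searched on both strands, were not in the window (chr2:152344061-152344310, minus strand). Only 3.45% of all windows held them, so their absence is usual, and ATF4 control of Trib3 was not tested. The capitals mark the PU.1 core read on the opposite strand.
Trib3: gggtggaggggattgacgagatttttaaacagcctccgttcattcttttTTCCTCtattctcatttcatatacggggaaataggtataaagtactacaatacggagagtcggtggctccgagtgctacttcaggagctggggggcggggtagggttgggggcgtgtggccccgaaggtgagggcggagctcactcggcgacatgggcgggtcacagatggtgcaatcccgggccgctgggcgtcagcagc

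Of 13 genes of the ATF4 stress response, Atf5 and Nupr1 were called higher and Vldlr lower in TR1. In TR9, Ddit4 and Atf5 were higher and Asns, Psat1 and Vldlr lower, and between the lines only Phgdh was called. Atf5, a transcription factor of the ATF4 family, stood at 5.37, 19.6 and 21.19 FPKM in the control, TR1 and TR9 libraries, log2 ratios of 1.87 (1.45 to 2.36) and 1.98 (1.56 to 2.46). Phgdh, the first enzyme of serine synthesis, stood at 85.47, 107 and 53.34 FPKM and was 2.01-fold lower in TR9 than in TR1. Ddit3, the gene for CHOP, had 66, 60 and 43 counts and was not called. The 13 genes had median log2 ratios of -0.16 (TR1) and -0.52 (TR9), beside -0.29 and -0.12 over all genes.

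Of 15 partners and substrates of the tribbles proteins, 4 were called higher in each comparison with control (Cebpa, Cebpb, Cebpd and Cebpe, C/EBP transcription factors of the granulocyte lineage), 2 lower (Cul4a and Cul4b, ligase scaffolds) and 9 neither. None was called between TR9 and TR1. Cebpe, which acts late in granulocyte development, stood at 10.59, 70.61 and 90.99 FPKM in the control, TR1 and TR9 libraries, log2 ratios of 2.74 (2.38 to 3.12) and 3.10 (2.75 to 3.48). Cebpd stood at 5.32, 44.18 and 32.38 FPKM, log2 ratios of 3.05 (2.69 to 3.45) and 2.61 (2.23 to 3.01). Cebpa, whose protein TRIB1 and TRIB2 send for degradation, stood at 32.22, 82.56 and 142.46 FPKM, and these are levels of RNA, which say nothing of the protein. Cop1 stood at 24.49, 16.94 and 13.13 FPKM and was not called. The list's median log2 ratio, -0.28 in TR1 and -0.06 in TR9, was close to that of all genes.

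**Figure D2:**
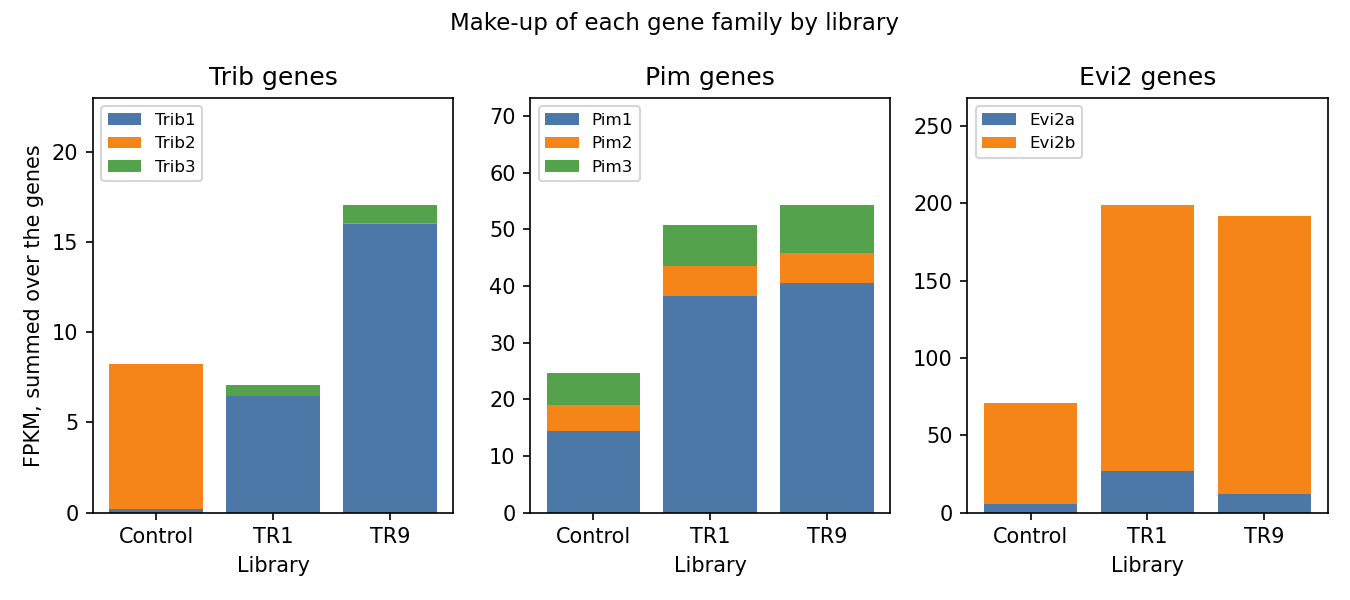
Summed FPKM of the Trib, Pim and Evi2 genes in each library, with each gene as a part of its bar. Trib2 filled the control bar and Trib1 the TR1 and TR9 bars, Pim1 made most of the higher Pim sum of the TR libraries, and Evi2b most of each Evi2 bar.

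Among the Pim kinases, Pim1 was higher in both leukemia libraries and Pim2 and Pim3 were not called. Pim1 had 139, 376 and 366 expected counts in the control, TR1 and TR9 libraries, or 14.38, 38.21 and 40.45 FPKM. The TR1 and TR9 levels lay side by side and above control. Log2 ratios over control were 1.41 (1.13 to 1.71) for TR1 and 1.49 (1.21 to 1.79) for TR9, or 2.66-fold and 2.81-fold. Between the lines it was 0.08 (-0.13 to 0.29), an interval that keeps any difference well under 2-fold as far as counting error goes.

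Pim2 had 52, 60 and 57 expected counts in control, TR1 and TR9, or 4.62, 5.24 and 5.41 FPKM. Over control, the log2 ratio was 0.18 (-0.38 to 0.75) for TR1 and 0.23 (-0.34 to 0.80) for TR9, so the libraries did not differ beyond counting error. Pim3 had 75, 100 and 104 counts, or 5.64, 7.39 and 8.36 FPKM. Over control, the log2 ratio was 0.39 (-0.05 to 0.85) for TR1 and 0.57 (0.13 to 1.02) for TR9, under 2-fold in each. Between TR9 and TR1 the values were 0.05 (-0.50 to 0.59) for Pim2 and 0.18 (-0.23 to 0.59) for Pim3. Per length, Pim1 stood 3.11-fold above Pim2 in control, 7.29-fold in TR1 and 7.48-fold in TR9, and it held 58.4%, 75.2% and 74.6% of the summed Pim FPKM of 24.64, 50.84 and 54.22.

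Pim1 lies on chromosome 17 (chr17:29490753-29496112, plus strand) with the antisense RNA Gm26885 across it, Pim2 on the X chromosome (chrX:7878262-7883432, plus strand) and Pim3 on chromosome 15 (chr15:88862186-88865726, plus strand). STAT5, the classic inducer of Pim1, binds TTCNNNGAA. These letters were in none of the 10 member windows. Only 7.02% of all promoter windows held them, so their absence is usual, and STAT control of Pim1 was not tested. The window before Pim1 is shown as that of the Pim gene that was higher (chr17:29490535-29490752, plus strand), and it held none of the 5 motifs searched.
Pim1: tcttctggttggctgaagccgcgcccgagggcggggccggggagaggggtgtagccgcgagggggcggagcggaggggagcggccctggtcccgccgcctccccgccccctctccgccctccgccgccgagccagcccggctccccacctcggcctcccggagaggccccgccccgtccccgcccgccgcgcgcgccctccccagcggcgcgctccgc

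The receptors and STAT factors upstream of the Pim genes did not move as 1 group. Of 9 inducers, Stat3 and the receptor chains Csf2ra, Csf2rb and Csf3r were called higher and Jak2, Stat5a and Stat5b lower in TR1. In TR9, Stat3, Csf2ra and Csf3r were higher and Jak2 and Stat5a lower. Csf3r, the G-CSF receptor, stood at 19.4, 174.53 and 96.88 FPKM in the control, TR1 and TR9 libraries, log2 ratios of 3.17 (3.05 to 3.35) and 2.32 (2.21 to 2.52). Csf2ra, the ligand-binding chain of the GM-CSF receptor, stood at 19.74, 77.43 and 58.93 FPKM, log2 ratios of 1.97 (1.75 to 2.21) and 1.58 (1.34 to 1.82). Csf2rb, the chain that the GM-CSF, IL-3 and IL-5 receptors share, was the only gene of this list called between the lines, at 23.88, 117.25 and 37.16 FPKM and a log2 ratio of TR9 over TR1 of -1.66 (-1.77 to -1.55). Part of the reads of Stat5a, Stat5b, Csf2ra, Csf2rb and Csf3r were shared with other models, since their expected counts were not whole. The 9 genes had median log2 ratios of 0.27 (TR1) and 0.64 (TR9).

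Of 7 other STAT5 targets, Socs3 was called higher and Ccnd2 lower in TR1, and in TR9 Cish and Socs3 were higher and Ccnd2 lower. Socs3, a feedback inhibitor of cytokine signaling, stood at 0.46, 4.95 and 6.87 FPKM, log2 ratios of 3.43 (2.31 to 4.78) and 3.90 (2.79 to 5.24). Ccnd2, the gene for cyclin D2, stood at 26.31, 4.24 and 2.34 FPKM, log2 ratios of -2.63 (-2.90 to -2.37) and -3.49 (-3.86 to -3.14). Cish, another feedback inhibitor, did differ between the lines, with 11, 6 and 74 counts in the control, TR1 and TR9 libraries and a log2 ratio of TR9 over TR1 of 3.74 (2.55 to 5.24). Pim1 showed no such difference between TR9 and TR1. The 7 targets had median log2 ratios of -0.76 (TR1) and 0.04 (TR9).

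Of 11 substrates of the Pim kinases, Cdc25c, Foxo1 and Foxo3 were called lower in TR1, and Foxo1 and Foxo3 lower with Cdkn1a and Cxcr4 higher in TR9. Foxo3, a transcription factor of quiescence and apoptosis, stood at 19.79, 6.6 and 9.06 FPKM, log2 ratios of -1.58 (-1.91 to -1.26) and -1.13 (-1.43 to -0.83). Cdkn1a, the gene for the cell cycle inhibitor p21, stood at 4.5, 6.2 and 14.72 FPKM and was higher in TR9 than in TR1 by a log2 ratio of 1.25 (0.81 to 1.69). Cxcr4, the receptor that holds cells in the marrow, stood at 59.95, 99.93 and 210.1 FPKM, with a TR9 over TR1 log2 ratio of 1.07 (0.96 to 1.18). Medians of the log2 ratio were -0.05 in each comparison with control.

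Evi2b was the most abundant of the 10 genes in each library, and among the 4 members called higher in TR1, Evi2a had the largest ratio after Trib1. Both encode membrane proteins of blood cells and were found as the integration site of a virus in the Nf1 gene of leukemic mice. Evi2b had 1282.53, 3465.8 and 3288.7 expected counts in the control, TR1 and TR9 libraries, or 65.68, 171.71 and 179.37 FPKM. Both TR libraries were high and close to each other. Log2 ratios over control were 1.39 (1.32 to 1.51) for TR1 and 1.45 (1.36 to 1.55) for TR9, or 2.61-fold and 2.73-fold, and 0.06 (-0.03 to 0.11) between the lines. Evi2b ranked 1230, 345 and 322 in the control, TR1 and TR9 libraries.

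Evi2a had 48.47, 253.2 and 103.3 expected counts in the control, TR1 and TR9 libraries, or 5.45, 26.97 and 12.2 FPKM. TR1 was highest, TR9 between TR1 and control. Log2 ratios over control were 2.31 (1.93 to 2.85) for TR1 and 1.16 (0.69 to 1.72) for TR9, or 4.95-fold and 2.24-fold. Evi2a was 2.21-fold lower in TR9 than in TR1, a log2 ratio of -1.14 (-1.52 to -0.84). The level of Evi2b per length was 12.1-fold that of Evi2a in control, 6.37-fold in TR1 and 14.7-fold in TR9. Over the 3 libraries the genes nearest to Evi2a were Trp53inp1, at 4.92, 25.34 and 12.71 FPKM, and Rnf169, at 6.62, 24.65 and 13.02 FPKM, with distances of 0.18 and 0.32 in log2 FPKM. The expected counts of Evi2a and Evi2b were not whole. An annotated readthrough gene, Evi2, overlaps both and was not listed, so the split of reads between these models is uncertain.

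**Figure D3:**
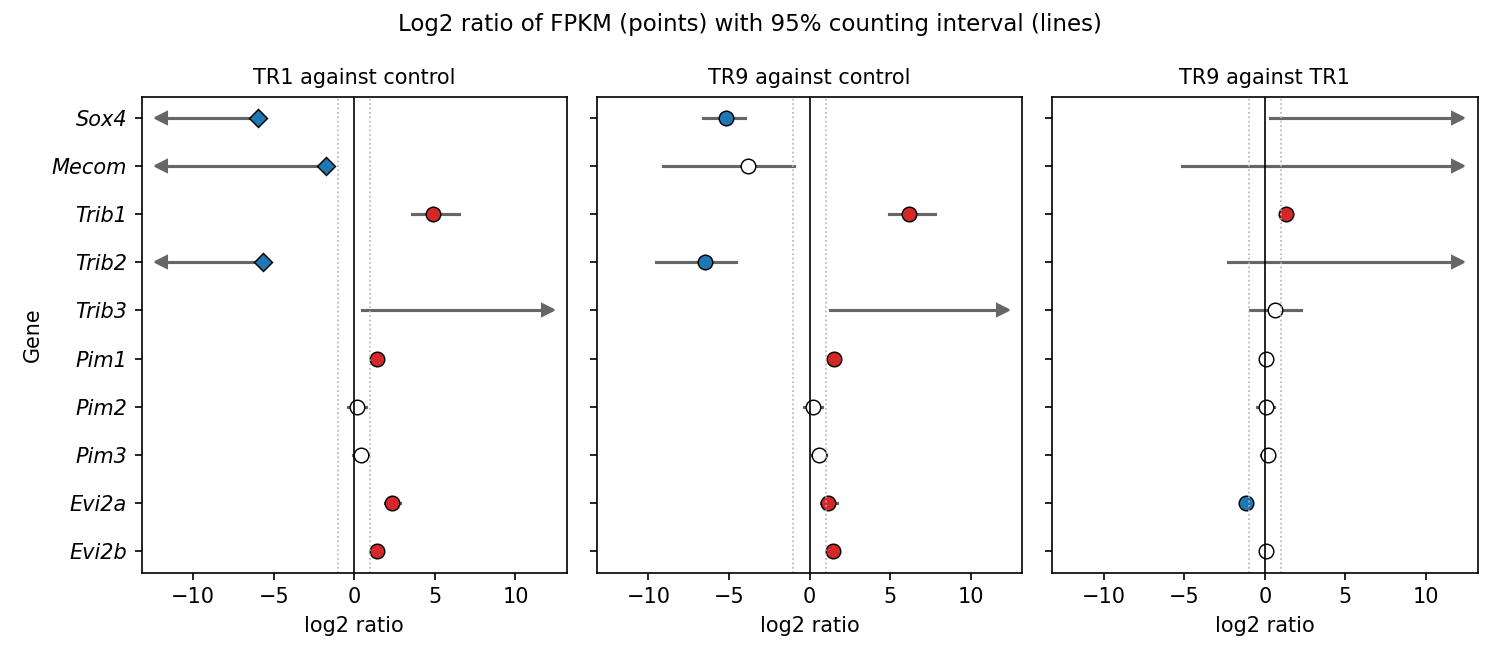
Log2 ratio of FPKM for the 10 genes in the 3 comparisons, with lines for the 95% counting interval, arrows where it has no end because a library had 0 counts, and dotted lines at 2-fold. Red marks a gene called higher and blue one called lower, white one not called, and a diamond stands at the nearer end of an open interval. Trib1 and Evi2a were the only members called between TR9 and TR1.

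Evi2a (chr11:79526560-79530609) and Evi2b (chr11:79515056-79523762) lie on the minus strand of chromosome 11 inside intron 36 of Nf1 (chr11:79339693-79581612, plus strand, 58 exons), together with Omg. Nf1, the gene for the RAS inhibitor neurofibromin, stood at 4.02, 3.16 and 4.2 FPKM in the control, TR1 and TR9 libraries and was not called, and the log2 ratio of TR9 over TR1 was 0.41 (0.14 to 0.68). Omg, a myelin glycoprotein gene, had 3, 5 and 7 counts. Rab11fip4, the gene after Nf1 on the same chromosome, encodes an effector of the vesicle protein RAB11. It had 10, 105 and 35 counts in the control, TR1 and TR9 libraries, or 0.58, 5.95 and 2.16 FPKM, log2 ratios of 3.36 (2.44 to 4.47) and 1.90 (0.86 to 3.08). Like Evi2a it was highest in TR1, and it was called lower in TR9 than in TR1, at a log2 ratio of -1.46 (-2.06 to -0.90). Among the closest neighbours of the 10 genes, 2 on each side, 37 were not members, 13 of these were listed in some library, and Rab11fip4 was the only one called in any comparison.

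The promoter of Evi2b is shown as that of the most abundant member, which lay inside another gene's intron (chr11:79523763-79524012, minus strand). It held none of the 5 motifs searched.
Evi2b: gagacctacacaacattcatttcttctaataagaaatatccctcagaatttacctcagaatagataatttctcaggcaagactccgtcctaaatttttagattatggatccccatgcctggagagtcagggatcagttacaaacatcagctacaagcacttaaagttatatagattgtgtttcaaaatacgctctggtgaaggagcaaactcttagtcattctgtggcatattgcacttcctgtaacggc

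**Figure D4:**
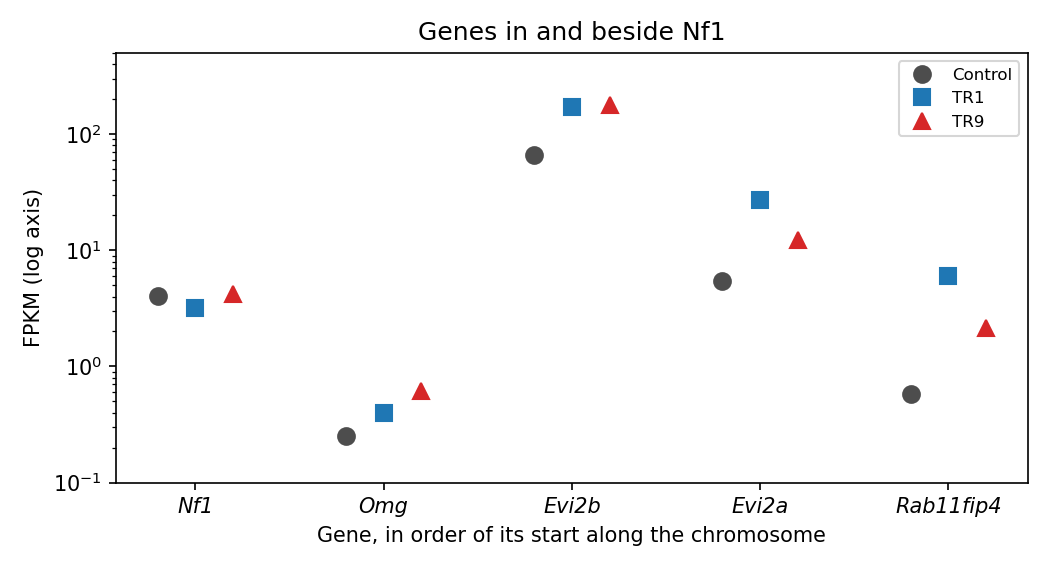
FPKM on a log axis of Nf1, the 3 genes inside its intron and Rab11fip4 beside it, in the order of their starts, 1 point per library. Evi2b and Evi2a were higher in TR1 and TR9 than in control while Nf1 stayed between 3.16 and 4.2 FPKM, and Evi2a and Rab11fip4 were each highest in TR1.

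Other insertion-site genes went both ways. Of 38 such genes listed from mouse leukemias, 5 were called higher and 18 lower in TR1, where 8.09% of all genes were higher and 13% lower. In TR9, 6 were higher and 16 lower, against 9.37% and 10.8% of all genes. The median log2 ratios were -1.11 and -1.02, beside -0.29 and -0.12 over all genes. Gfi1, Erg, Jdp2 and Map3k8 were called higher in TR1 together with Flt3, and in TR9 together with Notch1 and Spi1. Gfi1b, a repressor of the erythroid and megakaryocyte lineages, had 870, 0 and 1 counts in the control, TR1 and TR9 libraries. The difference was at least 239-fold for TR1, and for TR9 the log2 ratio was -9.70 (-14.97 to -7.19). Epor, the erythropoietin receptor gene, had 316, 0 and 1 counts, at least 86.4-fold lower in TR1.

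Between the lines, 5 of the 32 insertion-site genes tested were called higher in TR9 (Lmo2, Hhex, Runx1, Kit and Spi1) and 2 lower (Runx3 and Flt3). Over all genes, 4.34% were higher and 2.31% lower. Flt3, a receptor kinase gene of early progenitors, was higher in TR1 than in control and lower in TR9. It stood at 16.16, 38.44 and 6.65 FPKM in the control, TR1 and TR9 libraries, log2 ratios of 1.25 (1.07 to 1.44) and -1.28 (-1.59 to -0.98), and -2.53 (-2.82 to -2.26) for TR9 over TR1. Runx3, a Runt transcription factor, stood at 23.37, 16.66 and 6.58 FPKM, with a TR9 over TR1 log2 ratio of -1.34 (-1.65 to -1.06). Against control, Flt3 in TR1, and Notch1 and Spi1 in TR9, were thus called higher in 1 line only, as none of the 10 members was. Flt3 and Spi1 were also called between TR9 and TR1, whereas Notch1 was not. Notch1 stood at 7.63, 11 and 16.97 FPKM in the control, TR1 and TR9 libraries, with a TR9 over TR1 log2 ratio of 0.63.

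**Figure D5:**
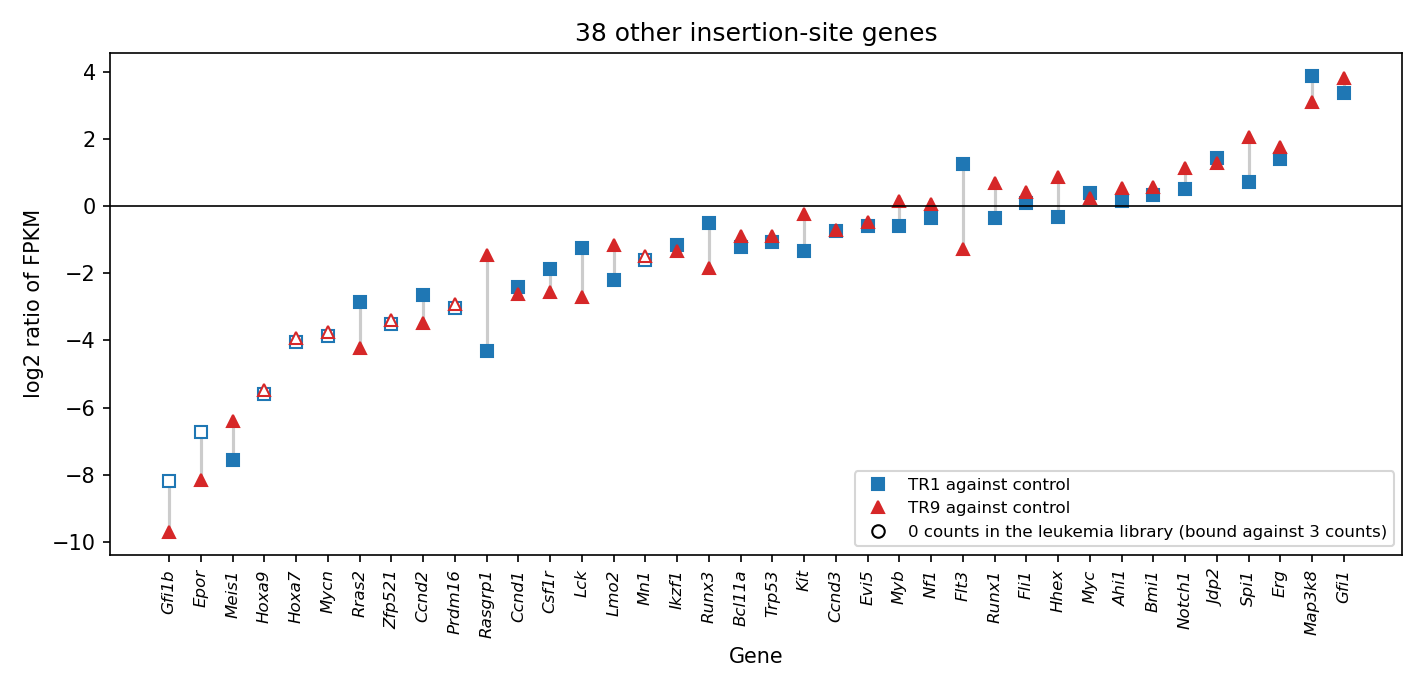
Log2 ratio of FPKM over control for 38 other insertion-site genes in TR1 (blue squares) and TR9 (red triangles), ordered by the mean of both, with open symbols for the bound against 3 counts where the leukemia library had 0. Gfi1b lay lowest and Gfi1 and Map3k8 highest. Flt3, Hhex, Runx1, Myb and Nf1 had their symbols on opposite sides of 0, and of these only Flt3 was called against control.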

How the data were processed

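RNA-seq of 3 libraries was used, 1 each of lin- control, TR1 and TR9 bone marrow cells, each pooled from 3 mice, so no replicate spread could be had. The authors deposited, per gene, an expected count, an FPKM value and a transcript length for each library. The sources used here name Illumina HiSeq reads filtered and mapped with BWA and Bowtie and quantified with RSEM. The submitters' processing notes name mm9, and tool versions, annotation and the strand of counting are not given in the sources used here.

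Gene identifiers were matched to RefSeq mouse symbols (16698 of 16742), and a gene not listed was set to 0. Expected counts were rounded and each pair of libraries was put to an exact Poisson test, conditional on a gene's total, with p-values adjusted by Benjamini-Hochberg over the genes listed in either library. Calls needed a false discovery rate of 0.001 or less together with a log2 FPKM ratio of 1 or more in size, with FPKM under 0.01 set to 0.01. The study's methods gave these thresholds. Against 0 counts a fold is given as at least the nearer limit of the 95% interval. Intervals are 95% Clopper-Pearson intervals and cover counting error only. Library totals ran from 5129662 to 5571409 expected counts. The procedure was run on simulated counts with counting error only, the error that the test assumes. That run says nothing of variation between animals.

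The members and gene lists were chosen with earlier results of these data known, and the 5 motifs after the data were opened. These were the retinoic acid receptor half-site AGGTCA, the PU.1 core GAGGAA, the STAT site TTCNNNGAA, the C/EBP site TTGCNNAA and the ATF4 site TGATGNAA, each searched on both strands. Named besides the 10 members were, per list, the 2 genes with the largest mean log2 ratio called the same way in TR1 and TR9 and the 2 with the largest called difference between TR9 and TR1, with at least 5 FPKM in a library, called genes among the 2 nearest neighbours on each side, and the 2 genes nearest in level to each member called between the lines. Other genes were named after their values were seen. A few genes of the lists are not reported by name here, though the lists' sums and medians include them. Coordinates are from GENCODE M21 (GRCm38), not from the deposited files, which hold none. Promoter windows are the 250 bases before RefSeq starts (GRCm38.p6), less bases in a GENCODE exon, and 8 of the 10 members matched (10 starts). Trib1 and Evi2a did not. AGGTCA was also in the window of Pim3, GAGGAA in those of Pim2, Pim3 and Trib3, and TTGCNNAA, in 9.56% of all windows, in that of Pim2. In Mecom, AGGTCA was in a full window of 250 bases but not in the part left without exon bases. Shares of all windows are over the full 250 bases. In Pim3 the matches overlap.

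Alternatives were another floor, a pseudocount of 1 FPKM, filters on low values, 5 other scalings, other thresholds, and the exact test of edgeR 4.0.16 (R 4.3.3) with the biological coefficient of variation set to 0.2. Python 3.11.15, numpy 2.4.6, pandas 2.3.3, scipy 1.17.1 and matplotlib 3.10.9 were used.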

Additional observations from a re-analysis of the deposited data

Results flagged for a closer look

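Of the 10 genes, 2 had effects against the shared control that differed between the lines, as tested on the reads of TR9 against TR1. Trib1 was higher in TR9, with a log2 ratio of FPKM of 1.30 (1.01 to 1.59) from 147 expected counts in TR1 and 333 in TR9. Evi2a was lower in TR9, at -1.14 (-1.52 to -0.84) from 253.2 and 103.3 expected counts. Both lost their call under an assumed variation between animals of 0.2 in edgeR's exact test, and with 1 library per line a difference between lines and one between pools of mice cannot be told apart.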

How the results depend on the processing

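No paired analysis was possible because each condition had 1 library with no replicate number, and for the same reason no replicate could be left out. The 10 genes were recomputed under 13 other settings. Of 378 values of single genes, 341 kept their direction and their side of the call, and 69 of 78 counts of called members stayed within 1.5 times. Under edgeR's exact test with an assumed variation of 0.2, members called higher fell to 2 in TR1 (Trib1 and Evi2a), 1 in TR9 (Trib1) and 0 between the lines, with 0 lower there. Requiring an absolute log2 ratio of at least 2 gave the same counts, 2, 1, 0 and 0. With 2-fold and no test, 4 members were higher in TR9 than in TR1, where Sox4, Mecom and Trib2 joined Trib1 on 6, 1 and 2 counts against 0. Mecom lost its call in TR1 with a pseudocount of 1 FPKM (log2 ratio -0.65) and under edgeR, and a minimum of 1 FPKM left it out. At a false discovery rate of 0.05, Trib3 was called higher in TR1 and in TR9 and Mecom lower in TR9.

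Scaling turned only ratios near 0. Pim2 in TR1 over control became -0.0437 with TPM. In TR9 over TR1, Pim1, Pim2 and Evi2b became -0.0502, -0.0863 and -0.0694 with TMM, -0.037, -0.0731 and -0.0562 with the median of ratios and -0.0183, -0.0544 and -0.0375 with the upper quartile, and Pim2 and Evi2b became -0.0199 and -0.003 without the 100 most abundant genes. TMM moved the log2 ratios of genes listed in both libraries by 0.25 in TR1, 0.11 in TR9 and -0.13 between the lines, and TPM by -0.23, -0.11 and 0.12. Over all genes, calls in TR1 were 1317 higher and 2120 lower as reported, 1694 and 1591 with TMM, 1062 and 2918 with TPM, and 657 and 992 under edgeR. In TR9 they were 1527 and 1766, 1717 and 1503 with TMM, and 717 and 830 under edgeR, and between the lines 681 and 363, 551 and 445 with TMM, and 188 and 94 under edgeR.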
